A study of Xenopus tropicalis with 12 samples.

Results

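The effect of thyroid hormone (T3) on binding of the T3 receptor (TR) was compared between TRα (-/-) and wild-type hind limb, one genomic region at a time. TR-bound DNA had been collected by ChIP-seq, in which an antibody pulls down a protein together with the DNA it occupies and the DNA is sequenced, from Xenopus tropicalis tadpoles at about stage 54. The 4 conditions were hind limb of TRα (-/-) tadpoles that had received T3 at 10 nM over 18 h, untreated TRα (-/-), wild type given the same T3 treatment and untreated wild type. Each condition comprised 3 libraries, 12 in all. The labels state that both genotypes came from the same parents. The study's methods say that wild-type frogs were purchased and that TRα (-/-) frogs came from crossing TRα (+/-) frogs. Which of these holds for the tadpoles used was not checked. The methods also state that each sample pooled the limbs of at least 5 tadpoles and that the 3 libraries of a condition are technical replicates. All SDs, standard errors and p-values below therefore measure technical spread, and a difference between conditions cannot be told apart from a difference between the pooled samples they came from. One antibody against TR was used in both genotypes, and the signal in TRα (-/-) tissue is what it brought down in animals with the TRα gene knocked out.

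TRs are nuclear receptors that sit on T3 response elements in DNA, usually together with the retinoid X receptor. Without T3 they recruit corepressors to the genes they occupy, and with T3 they recruit coactivators, so occupancy and activity are separate properties. Vertebrates carry a TRα and a TRβ gene. In tadpoles TRα is present early, including in the growing limb, and TRβ is itself a gene that T3 induces. The limb is among the first organs of the tadpole to respond to T3. The question put to the regions here is whether the shift in binding that came with T3 in one genotype was also seen in the other.

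Peaks of the 12 libraries that overlapped by 1 bp or more were joined into 189159 regions. Of these, 5098 (2.70%) were bound in all 4 conditions, meaning that 2 or 3 of the 3 libraries of every condition held a peak there. Only such regions were used to compare the T3 change between the genotypes. They are called kept regions here. They made up 41.3% of the 12353 regions bound in TRα (-/-) with T3, 68.1% of the 7485 bound in TRα (-/-) without T3, 37.7% of the 13521 bound in wild type with T3 and 32.2% of the 15853 bound in wild type without T3. A peak was present in all 12 libraries in 1668 kept regions, in 11 in 1741, in 10 in 1034, in 9 in 514 and in 8 in 141. The strength of a region in a library was expressed as a percentile, the rank of its strongest peak by fold enrichment among all peaks of that library, with 100 the strongest. Fold enrichment is the peak caller's ratio of fragments at the summit over the local background. A library with no peak in the region gave no value. The 1668 regions with all 12 peaks had a median mean percentile of 90.9, the 3430 regions with 2 of 3 peaks in their weakest condition 76.7, and the 2848 regions that missed the rule by 1 library in 1 condition 66.7. In 85.5% of those 3430 regions and 66.5% of those 2848, TRα (-/-) without T3 had the fewest peaks, alone or tied with another condition.

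The libraries differed in depth and in the length of their peak lists, and TRα (-/-) without T3 stood apart. Depth ranged from 834029 to 6119057 fragments and list length from 4645 to 42421 peaks, both lowest in TRα (-/-) without T3 replicate 2. That library had a peak in 2516 of the 5098 kept regions (49.4%), whereas the other 11 libraries had one in 4216 to 5053. In the lists of replicate 1 of both T3-treated conditions, peaks began at 2 fragments, and a single fold enrichment value was shared by 21.0% of the TRα (-/-) list and 15.6% of the wild-type list. A longer list that adds weak peaks raises the percentile of every strong region in it. The main counts are therefore also given on a second scale, the percentile among the kept regions of the library only, which leaves all other peaks of the list out. That scale centers each library on its own kept regions, so upward and downward changes are pulled toward balance by its construction, and nothing is read from their balance on it.

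Kept regions stood higher within the lists of T3-treated libraries in both genotypes. The median kept region was at percentile 91.7, 88.3 and 86.8 in replicates 1, 2 and 3 of TRα (-/-) with T3, and at 83.3, 69.3 and 84.2 in TRα (-/-) without T3. It was at 92.1, 89.4 and 91.1 in wild type with T3 and at 88.4, 86.1 and 86.1 in wild type without T3. In both genotypes, all T3 libraries lay above all libraries without T3, and all their peak lists were also longer. The library medians averaged 88.95 ± 2.51 with T3 and 78.9 ± 8.33 without T3 in TRα (-/-) (SD, n = 3 each), a difference of 10.0 points with p = 0.1 (two-sided exact permutation test, which cannot go lower with 3 against 3 libraries). In wild type they averaged 90.9 ± 1.35 with T3 and 86.9 ± 1.33 without T3 (SD, n = 3 each), a difference of 3.98 points with p = 0.1 in the same exact test. The TRα (-/-) difference exceeded the wild-type difference by 6.02 points, which was within what 400 rearrangements of genotype within treatment gave (exact permutation test, two-sided, p = 0.415). These rearrangements assume that the genotypes are alike under each treatment, whereas the averages without T3 were 78.9 and 86.9. That p therefore does not measure the difference in T3 change alone. Without TRα (-/-) without T3 replicate 2, the excess was 1.22 points, and with the same number of peaks taken from every list it was -1.75 points.

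**Figure D1:**
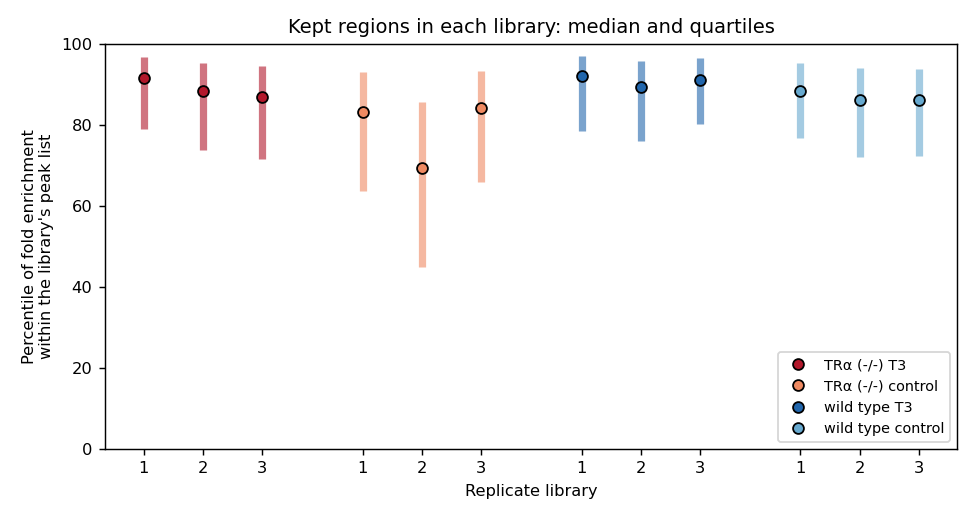
Percentile of fold enrichment (y axis, 100 = strongest peak of the library) of the kept regions in each of the 12 libraries (x axis, replicate number, grouped by condition). Points are medians over the kept regions with a peak in the library and bars run between the quartiles. The lowest median, 69.3, belongs to TRα (-/-) without T3 replicate 2, and the medians with T3 lie above those without T3 in each genotype.

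By region, the T3 change was taken as the mean percentile with T3 minus the mean percentile without T3. In TRα (-/-) the change had a median of 6.06 points and an SD over regions of 16.4, and it was positive in 3812 regions (74.8%) and negative in 1286. In wild type it had a median of 1.43 points and an SD of 12.6, and it was positive in 3285 regions (64.4%) and negative in 1813. Changes of 20 points or more were seen in 1288 regions in TRα (-/-), of which 1086 were upward, and in 618 in wild type, of which 427 were upward. On the scale of kept regions only, which is centered by construction, the median change was 0.36 points in TRα (-/-) and -0.31 points in wild type, with 2610 and 2479 regions positive. With the same number of peaks taken from every list, which left 1761 kept regions, the median TRα (-/-) change was 0.11 points. When only peaks with a q value below 0.01 or 0.001 were used, the median wild-type change was -0.27 and -1.65 points. The median TRα (-/-) change was then 5.21 and 4.71 points. Over all alternatives with other processing, the median wild-type change ranged from -1.65 to 3.34 points, so its sign was not fixed. The typical standard error of a region's change (root mean square over regions) was 13.5 points in TRα (-/-) and 12.7 points in wild type. The spread of the changes over regions was 16.4 and 12.6 points. Each standard error came from a single spread per region, shared by all 4 conditions. The median SD between libraries was 10.6 points in TRα (-/-) without T3, against 5.07 and 5.89 in wild type without and with T3. The wild-type standard error is therefore not a measure of wild-type libraries alone and can be too large.

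The T3 changes of the same regions in the 2 genotypes showed no correlation. Over the 5098 regions the TRα (-/-) change and the wild-type change had a Pearson correlation of -0.0361 and a Spearman correlation of -0.0189, and on the scale of kept regions only they had -0.0408 and -0.0377. These are descriptions across regions that share libraries, depth and background, and carry no p. Technical error in either genotype pulls a correlation toward 0. The standard errors rest on a spread shared by all 4 conditions, so the part of error in the wild-type changes was not measured separately. A correlation near 0 therefore does not show whether the underlying changes were alike. Split by mean percentile over the conditions, Pearson's r was -0.0607 in the lowest 1699 regions, -0.0151 in the middle 1699 and 0.0141 in the highest 1700. Among the 1668 regions with a peak in every library it was 0.0185, and on single chromosomes it lay between -0.114 (chromosome 9, 451 regions) and 0.0129 (chromosome 5, 539 regions). When each change was taken from 1 library per condition, the 81 possible combinations gave r from -0.184 to 0.203, with a median of -0.00826.

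The levels were correlated between all conditions. The mean percentiles of TRα (-/-) with T3 and wild type without T3 had a Pearson correlation of 0.741 over the kept regions, and those of TRα (-/-) with T3 and wild type with T3 had 0.657. The 2 treatments of one genotype had 0.603 in TRα (-/-) and 0.708 in wild type. Which pair was closest depended on the measure, since by Spearman's rho TRα (-/-) with T3 and wild type without T3 had 0.807 and the wild-type pair 0.810, and by Pearson's r among kept regions only they had 0.840 and 0.855. The lowest value, 0.546, was that of TRα (-/-) without T3 with wild type with T3, and the 3 correlations that involve TRα (-/-) without T3 were the 3 lowest of the 6. Between libraries of one condition, r ranged from 0.344 to 0.566 in TRα (-/-) with T3, from 0.445 to 0.486 in TRα (-/-) without T3, from 0.376 to 0.491 in wild type with T3 and from 0.625 to 0.704 in wild type without T3, the deepest condition.

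By sign, 2441 regions (47.9%) were higher with T3 in both genotypes, 1371 (26.9%) were higher in TRα (-/-) and lower in wild type, 844 (16.6%) were lower in TRα (-/-) and higher in wild type, and 442 (8.67%) were lower in both. Ranked among kept regions only, a scale that pulls the shares toward equality, they were 24.0%, 27.2%, 24.6% and 24.2%. Changes of 20 points or more in both genotypes were few, with 101 regions upward in both, 13 downward in both and 97 in opposite directions, 52 of them upward in TRα (-/-). In 1969 regions (38.6%) both changes were below 10 points in size.

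**Figure D2:**
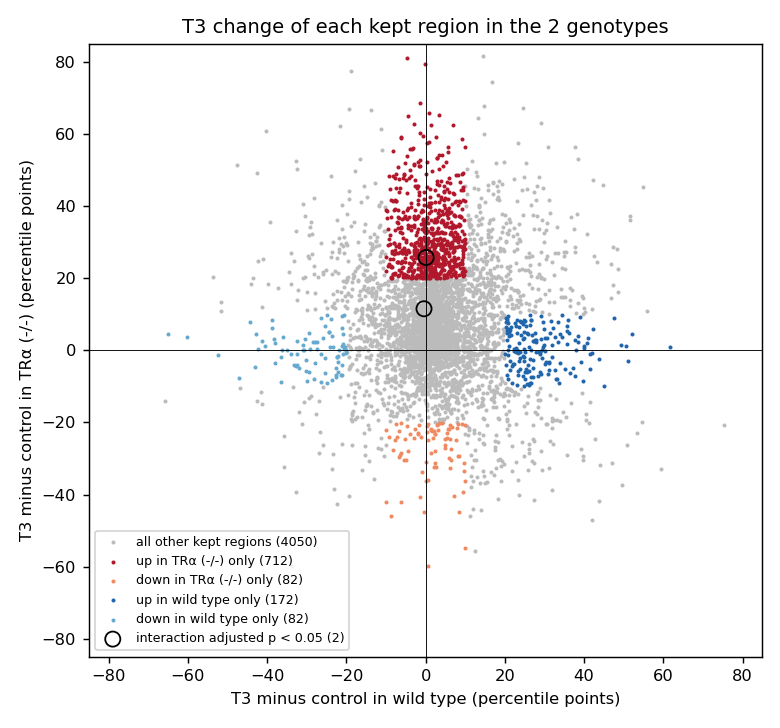
T3 minus control in TRα (-/-) (y axis) against T3 minus control in wild type (x axis), in percentile points, with 1 point for each of the 5098 kept regions. Colors mark the 4 sets that changed by at least 20 points in one genotype and by under 10 points in the other, and open circles mark the 2 regions past the interaction test. The cloud has no slope (r = -0.0361) and extends further upward than in any other direction.

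**Figure D3:**
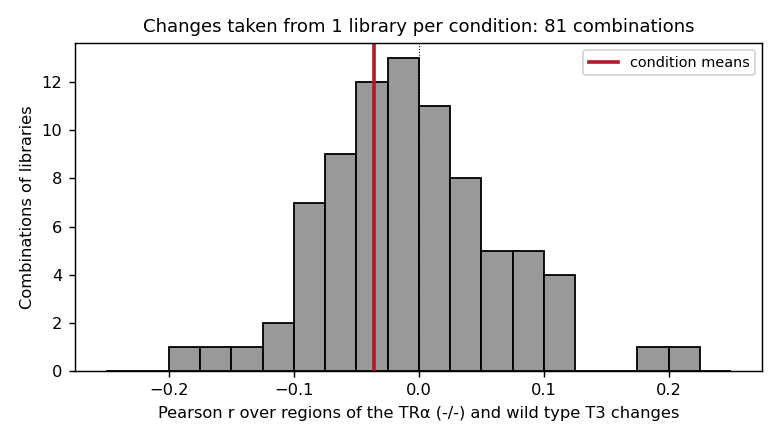
Histogram of Pearson's r over kept regions (x axis) between the TRα (-/-) and wild-type T3 changes when 1 library per condition is used, with the number of the 81 combinations on the y axis. The values run from -0.184 to 0.203 around 0, and the red line marks the value from condition means, -0.0361.

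The difference between the genotypes in the T3 change was tested for every kept region with limma, a linear model that borrows the estimate of spread across regions, with Benjamini-Hochberg adjustment over all 5098. The interaction is the TRα (-/-) change minus the wild-type change, so a positive value means a more positive T3 change in TRα (-/-). It passed an adjusted p of 0.05 in 2 regions, both positive (0.0392% of those tested), and in 0 regions in the negative direction (0.0%, smallest adjusted p = 0.294). At an unadjusted p of 0.05, 427 regions (8.38%) passed, 354 of them positive and 73 negative. The number that passed the adjusted threshold changed with single libraries. It was 66, 35 and 205 without replicate 1, 2 or 3 of TRα (-/-) without T3, and 0 or 1 without any other library. Both calls were lost by q value percentile, with missing peaks set to 0, on log2 fold enrichment and without a variance trend, and the last 2 settings called 2 and 6 regions of which none was among these.

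The first called region, chr4:740506-741101 of the v9.1 genome, was among the strongest peaks of every condition except TRα (-/-) without T3. Its percentiles were 99.2, 98.5 and 98.6 in TRα (-/-) with T3, and 88.9 and 85.6 in replicates 1 and 3 of TRα (-/-) without T3, with no peak in replicate 2. In wild type they were 99.8, 99.0 and 98.2 with T3 and 99.1, 99.5 and 99.5 without T3. Fold enrichment was 12.9 to 16.8 in TRα (-/-) with T3 and 6.80 and 7.76 in TRα (-/-) without T3, against 13.2 to 18.6 in wild type with T3 and 22.0 to 27.4 in wild type without T3. In percentile the T3 and untreated libraries of TRα (-/-) did not overlap and those of wild type, all near the top of the scale, did. In fold enrichment they overlapped in neither genotype, and wild type was lower with T3. The wild-type median fold enrichment over all kept regions was also lower with T3 (6.60) than without T3 (8.21). Its percentile rose by 11.5 points in TRα (-/-) (standard error 1.23, limma adjusted p = 0.00203) and was -0.41 points in wild type (standard error 1.10), an interaction of 11.9 points (standard error 1.66, limma adjusted p = 0.0392).

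The second, chr2:9803827-9804364, had the same form at a larger size. Its percentiles were 96.9, 98.0 and 95.5 in TRα (-/-) with T3, and 74.0 and 68.0 in replicates 1 and 3 of TRα (-/-) without T3, again with no peak in replicate 2. In wild type they were 98.4, 96.3 and 99.2 with T3 and 98.6, 97.7 and 97.1 without T3. TRα (-/-) without T3 was the condition apart here too, since the other 9 libraries lay between 95.5 and 99.2. Summit pileups at this region were 9, 21 and 21 fragments in TRα (-/-) with T3 and 5 and 8 in TRα (-/-) without T3, against 11, 15 and 31 in wild type with T3 and 31, 32 and 42 in wild type without T3. The interaction was 25.6 points (standard error 3.56, limma adjusted p = 0.0392). Ranked among kept regions only, this region did not pass (limma adjusted p = 0.118), whereas chr4:740506-741101 did (limma adjusted p = 0.0217). In both called regions the value of TRα (-/-) without T3 thus rested on 2 libraries and on 14 fragments or fewer at the summit.

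The next 3 regions in the positive direction missed the threshold and had the same shape. At chr6:131006740-131007321 the percentiles were 94.7, 91.1 and 95.0 in TRα (-/-) with T3, and 1.40 and 26.7 in replicates 1 and 3 of TRα (-/-) without T3, where the summits held 3 and 5 fragments. Wild-type percentiles at this region were 93.3, 95.8 and 96.6 with T3 and 96.5, 94.0 and 95.6 without T3, and the interaction was 79.7 points (standard error 12.7, limma adjusted p = 0.0838). At chr6:128302158-128302828 the interaction was 65.0 points, with the same adjusted p. The only one of the 5 with a peak in all 12 libraries was chr10:38474034-38474845. It stood at 98.3, 98.9 and 98.1 in TRα (-/-) with T3 and at 89.1, 86.8 and 87.9 in TRα (-/-) without T3, against 98.9, 98.9 and 99.0 in wild type with T3 and 97.8, 97.9 and 97.2 in wild type without T3. Its 3 untreated TRα (-/-) libraries lay below the other 9, and its interaction of 9.20 points had an adjusted p of 0.114 (limma, standard error 1.65).

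In the negative direction the 5 regions with the smallest p did not pass, with limma adjusted p from 0.294 upward, and their libraries were more scattered. At chr1:193637519-193638355 the percentiles were 53.7, 36.6 and 86.9 in TRα (-/-) with T3, and 96.8, 47.2 and 95.1 in TRα (-/-) without T3. The wild-type values were 95.3, 91.2 and 76.3 with T3, and 17.2 and 7.38 in replicates 2 and 3 without T3, with no peak in replicate 1. The libraries of TRα (-/-) overlapped between treatments and those of wild type did not, and the interaction was -95.9 points (standard error 24.8). The one negative region with a peak in all 12 libraries, chr2:169009189-169009955, stood at 82.8, 84.6 and 87.7 in TRα (-/-) with T3 and at 94.0, 91.7 and 95.0 in TRα (-/-) without T3. In wild type it stood at 98.5, 98.7 and 96.3 with T3 and at 93.6, 96.9 and 97.9 without T3, an interaction of -10.2 points (standard error 3.13, limma adjusted p = 0.389). All TRα (-/-) libraries with T3 lay below the other 9 libraries there. The remaining 3, at chr1:191888385-191889147, chr6:2369278-2370236 and chr2:90544120-90545072, had interactions of -63.7, -89.0 and -59.4 points and lacked a peak in 1 to 3 libraries each. In the last of them, too, TRα (-/-) with T3 lay below every library of the other conditions.

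**Figure D4:**
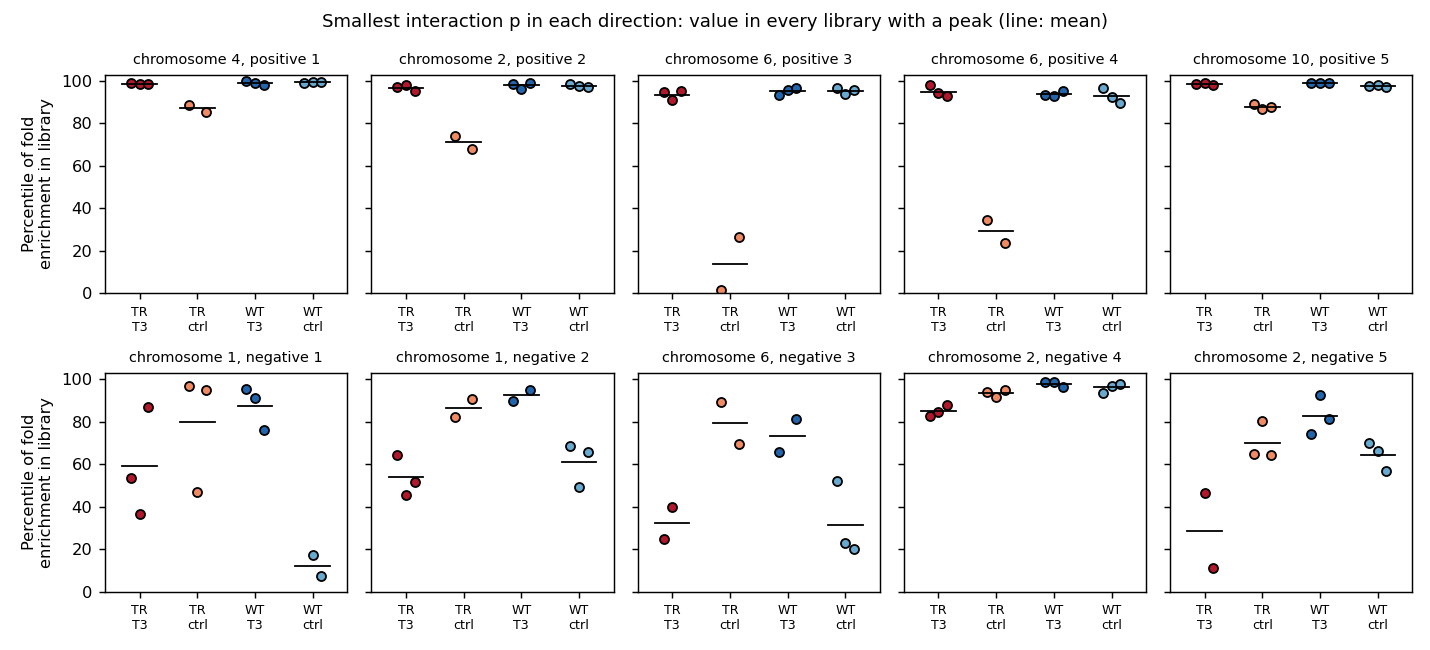
Percentile of fold enrichment (y axis, 100 = strongest) in every library with a peak for the 5 regions with the smallest interaction p in the positive (top) and negative direction (bottom), by condition (x axis; TR stands for TRα (-/-), WT for wild type, ctrl for without T3). Points are libraries and lines their means. In the top row TRα (-/-) without T3 lies below the other 3 conditions in every panel.

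Within TRα (-/-), the T3 change passed the limma test at an adjusted p of 0.05 in 91 regions upward (1.79% of 5098) and in 0 downward (0.0%, smallest adjusted p = 0.0734). At an unadjusted p of 0.05, 865 regions were up and 34 down, 17.6% of those tested in all. Within wild type no region passed in either direction (0.0%, limma, smallest adjusted p = 0.366), with 133 up and 37 down at an unadjusted p of 0.05 (3.33%). That difference in calls does not by itself show that the genotypes differ, which is what the interaction tests. Both tests also use a single spread per region for all 4 conditions. The median SD was 10.6 points in TRα (-/-) without T3, against 5.07 to 6.73 in the other conditions. A shared spread can make p-values too small in TRα (-/-) and too large in wild type. The part of this in the difference in calls was not tested. Leaving out replicate 1, 2 or 3 of TRα (-/-) without T3 gave 271, 200 and 526 called regions in TRα (-/-), leaving out any of the other 9 libraries gave 14 to 39, and in wild type no region passed without any 1 library. When regions were ranked among kept regions only, 26 passed in TRα (-/-) and 0 in wild type, and in TRα (-/-) 0 passed on log2 fold enrichment and 1 with missing peaks set to 0.

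In the 91 regions TRα (-/-) without T3 stood below the other conditions. The regions were called on a difference between that condition and TRα (-/-) with T3, so a low level there is favored by the selection. Most levels were also near the top of the percentile scale, which left little room above. The levels that follow describe the 91 regions and are no further evidence. TRα (-/-) with T3 was the highest condition in 27 of them. In all 91, TRα (-/-) without T3 had the lowest mean percentile of the 4 conditions, on both scales, whereas among all kept regions it was lowest in 2993 (58.7%), or in 1726 (33.9%) when ranked among kept regions only. Their median level was at percentile 96.3 in TRα (-/-) with T3 and 74.7 in TRα (-/-) without T3, against 96.7 in wild type with T3 and 95.3 in wild type without T3. The 3 conditions other than TRα (-/-) without T3 lay within a median of 2.47 points of each other. The TRα (-/-) level minus the wild-type level had a median of -0.45 points with T3 and -20.6 points without T3 over the 91, compared with -0.99 and -5.79 points over all kept regions. In fold enrichment the medians over all kept regions were 6.76 and 6.35 in TRα (-/-) with and without T3. In wild type they were 6.60 with T3 and 8.21 without T3. Over the 91 the medians were 10.5 in TRα (-/-) with T3 and 5.82 in TRα (-/-) without T3. Those of wild type were 10.1 with T3 and 13.0 without T3. The T3 change itself ranged from 4.27 to 79.6 points in TRα (-/-), with a median of 20.5, and in the same regions it ranged from -13.9 to 24.5 points in wild type, with a median of 0.61. By mean percentile, 60 of the 91 were among the highest 1700 kept regions, 23 among the middle 1699 and 8 among the lowest 1699. The TRα (-/-) change had an SD of 7.72, 16.1 and 21.9 points over these groups, in the same order. The fit ties the estimate of spread to the level, so smaller changes can pass where values vary less. Without that variance trend 76 regions were called, 49 of them among the 91. How far the high level of the 91 follows from the test was not tested, and nothing is read from it. Their median width was 824 bp, compared with 1032.5 bp for all kept regions.

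Depth did not separate the TRα (-/-) conditions, but list length did. Mean depth was 1874736 fragments in TRα (-/-) with T3 and 1810661 in TRα (-/-) without T3, against 1729495 in wild type with T3 and 4462391 in wild type without T3. The TRα (-/-) lists held 25461 to 38371 peaks with T3 and 4645 to 20827 without T3. In wild type both depth and list length separated the treatments. The wild-type lists held 32984 to 42421 peaks with T3 and 23668 to 29582 without T3. Wild-type depth was 1055706 to 2307377 fragments with T3 and 3080104 to 6119057 without T3. TRα (-/-) without T3 also had the largest spread between libraries, with a median SD per region of 10.6 points against 5.07 to 6.73 in the other conditions. On the scale of kept regions only that SD was 12.6, against 9.44 to 12.7. The part of list length, depth and library quality in the 91 calls, the wild-type changes and the interaction was not tested beyond these alternatives.

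Regions were then counted as changing in one genotype only when the change was at least 20 points in that genotype and under 10 points in size in the other. In TRα (-/-) only, 712 regions (14.0% of 5098) were higher with T3 and 82 (1.61%) were lower. In wild type only, 172 (3.37%) were higher with T3 and 82 (1.61%) were lower. Of these 1048 regions, 1 passed the interaction test, and it was chr2:9803827-9804364. At an unadjusted interaction p of 0.05, 155 of the 712, 6 of the 82, 8 of the 172 and 3 of the 82 passed. The sets were picked on the same changes that the interaction compares, so nothing is read from these counts against the 8.38% of all kept regions. The direction in wild type only depended on the setting. There were 96 higher and 147 lower with only peaks at q below 0.01, and 41 and 139 at q below 0.001. With missing peaks set to 0 they were 89 and 221. In TRα (-/-) only, upward regions were the majority in each of these settings. In the other alternatives that ranked among all peaks, upward regions were the majority in both genotypes.

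Ranked among kept regions only, 383 regions were higher and 292 lower with T3 in TRα (-/-) only, and 136 were higher and 182 lower in wild type only. The upward shares of 56.7% and 42.8% on that scale, beside 89.7% and 67.7% among all peaks, follow in part from its centering. Of the 712 regions higher in TRα (-/-) only, 257 (36.1%) were in that set on both scales, and these were 67.1% of the 383. Without TRα (-/-) without T3 replicate 2, 505 regions were higher and 110 lower in TRα (-/-) only, and 331 and 350 when ranked among kept regions only.

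In the 712 regions higher in TRα (-/-) only, the median level was at percentile 87.0 in TRα (-/-) with T3 and 55.2 in TRα (-/-) without T3, against 87.7 in wild type with T3 and 86.0 in wild type without T3. TRα (-/-) without T3 was the lowest of the 4 conditions in 703 of them (98.7%), and in 607 (85.3%) when ranked among kept regions only, and TRα (-/-) with T3 was the highest in 268. In the 172 regions higher in wild type only, wild type with T3 was the highest condition in 142 and wild type without T3 the lowest in 141. The medians there were 65.2 in TRα (-/-) with T3 and 65.9 in TRα (-/-) without T3, against 80.2 in wild type with T3 and 50.2 in wild type without T3. In the 82 regions lower in TRα (-/-) only, TRα (-/-) with T3 was lowest in 77 and TRα (-/-) without T3 highest in 44, and in the 82 lower in wild type only, wild type with T3 was lowest in 74 and wild type without T3 highest in 46. The sets were defined on these same means, so the levels describe them and are no further evidence.

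**Figure D5:**
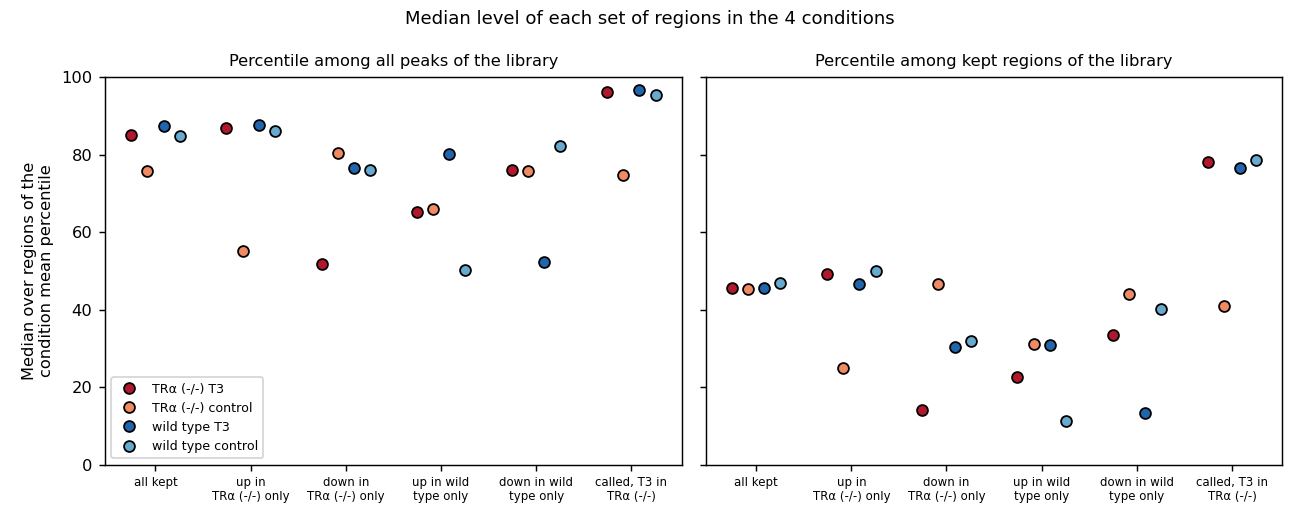
Median over regions of the condition mean percentile (y axis) for all kept regions, for the 4 sets that changed in one genotype only and for the 91 regions called for a T3 change in TRα (-/-) (x axis), in the 4 conditions (colors), ranked among all peaks of the library (left) and among kept regions only (right). Control in the legend is without T3. In the 91 called regions TRα (-/-) without T3 lies below the other conditions on both sides, at 74.7 on the left.

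Single regions of these sets with a peak in all 12 libraries and no overlap of treatments in the changed genotype show the size of the spread. The examples are not always the largest change of their set. Of those higher in TRα (-/-) only, the largest was at chr2:82047399-82047846. Its TRα (-/-) percentiles were 85.4, 85.8 and 78.3 with T3 and 12.1, 19.2 and 52.6 without T3. Its interaction was 63.5 points (limma adjusted p = 0.326). At chr1:169697099-169697700 the percentiles were 98.4, 97.8 and 98.4 in TRα (-/-) with T3 and 35.4, 14.7 and 87.4 in TRα (-/-) without T3. The corresponding wild-type percentiles were 89.2, 91.1 and 98.6 with T3 and 95.8, 92.5 and 89.3 without T3. The 3 untreated TRα (-/-) libraries spread from 14.7 to 87.4, and the interaction of 52.0 points had a limma adjusted p of 0.531. At chr5:145932261-145933220, lower in TRα (-/-) only, the percentiles were 78.1, 29.8 and 62.3 in TRα (-/-) with T3 and 82.5, 83.3 and 95.4 in TRα (-/-) without T3. The wild-type libraries gave 96.8, 95.8 and 96.2 with T3 and 96.0, 87.1 and 86.6 without T3, and the interaction of -36.7 points had a limma adjusted p of 0.544. Of the 82 regions in that set, only 2 met both conditions for being named.

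Of the regions higher in wild type only, chr2:4580644-4581444 stood at 76.5, 93.9 and 72.7 in TRα (-/-) with T3 and at 93.6, 76.1 and 90.9 in TRα (-/-) without T3, where the treatments overlapped. Its wild-type percentiles were 89.2, 91.9 and 93.5 with T3 and 47.7, 74.4 and 82.5 without T3, where they did not. The interaction was -29.1 points with a limma adjusted p of 0.610. The largest change named in this set, at chr10:35356330-35357733, was 39.3 points in wild type, with an interaction of -42.5 points (limma adjusted p = 0.615). Of those lower in wild type only, chr6:11431491-11432324 stood at 40.2, 97.7 and 95.7 in TRα (-/-) with T3 and at 87.9, 38.5 and 95.6 in TRα (-/-) without T3. Wild-type percentiles were 5.52, 87.5 and 74.0 with T3 and 88.2, 95.1 and 92.0 without T3. The low values of 40.2 and 5.52 both came from peaks of 2 fragments, and the interaction of 39.9 points had a limma adjusted p of 0.676.

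Among the regions with a peak in all 12 libraries, those with the largest upward change in both genotypes, by the smaller of the 2 changes, did not pass the test in either genotype. At chr2:102155968-102158784 the percentiles were 79.2, 30.4 and 9.57 in TRα (-/-) with T3 and 2.72, 21.0 and 5.26 in TRα (-/-) without T3. In the wild-type libraries the percentiles were 85.7, 57.9 and 52.0 with T3 and 64.4, 26.7 and 15.2 without T3. The changes were 30.1 points in TRα (-/-) (limma adjusted p = 0.419) and 29.8 points in wild type (standard error 19.0 in each), although the fold enrichment lay between 3.01 and 4.75 in all 12 libraries. At chr1:135006752-135008035 the changes were 28.8 points in TRα (-/-) and 37.6 points in wild type, and there the fold enrichment lay between 3.33 and 6.32. Near such low ratios a small difference in fold enrichment covers many ranks. Under the same restriction to 12 peaks, the region with the largest downward change in both genotypes was chr10:21276737-21278251. It changed by -12.3 points in TRα (-/-) and -15.5 points in wild type, with overlapping treatments in both genotypes and limma adjusted p of 0.629 or more.

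The strongest regions were picked by their mean percentile over all libraries. A mean so near the top of the scale is possible only with a high percentile in every library. Their stable rank and their small percentile changes and interactions therefore follow from that choice, and nothing is read from them. At chr4:125425838-125426521 the fold enrichment was 33.7, 33.5 and 35.2 in TRα (-/-) with T3 and 36.6, 29.9 and 34.0 in TRα (-/-) without T3. In wild type it was 33.8, 33.2 and 32.2 with T3 and 37.6, 35.5 and 34.4 without T3. The fold enrichments of the 2 treatments overlapped in TRα (-/-). In wild type those with T3 all lay below those without T3, as did the median over all kept regions. In percentile the T3 change was 0.05 points in TRα (-/-) and 0.06 points in wild type, and the interaction was -0.01 points (standard error 0.64). The next 2, at chr3:3036660-3037562 and chr7:113789615-113790082, had fold enrichments from 24.5 to 42.9 and interactions of 0.06 and 0.05 points.

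Among the 1668 regions with a peak in all 12 libraries, the 3 T3 libraries all lay above the 3 untreated ones in 399 regions in TRα (-/-) (23.9%) and all below in 15 (0.899%). In wild type they all lay above in 314 (18.8%) and all below in 28 (1.68%). Ranked among kept regions only, the counts were 172 above and 121 below in TRα (-/-) and 105 above and 135 below in wild type, on a scale that pulls the 2 directions toward balance.

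The set of regions higher in TRα (-/-) only was spread over all chromosomes. The share of kept regions higher in TRα (-/-) only lay between 12.3% (chromosome 8) and 16.1% (chromosome 7) on the 10 chromosomes, beside 14.0% for all. Kept regions next to each other within 1 kb, 118 pairs, had a correlation of 0.645 in mean percentile, of -0.101 in the TRα (-/-) change, of 0.262 in the wild-type change and of -0.0435 in the interaction. For the 728 pairs 1 to 10 kb apart the 4 values were 0.357, -0.0246, 0.112 and 0.00813. Neighbors thus shared their level, and to a lesser degree their change in wild type, but not the difference between genotypes. Neighbors also share local background, and these correlations are descriptions. No region was assigned to a gene, because the coordinates are those of v9.1 and no annotation of that build was used here.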

How the data were processed

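Reads had been mapped by the authors with Bowtie2 2.3.4.1 (Xenbase genome, build v9.1), and peaks had been called library by library with MACS2 2.1.1.20160309 at a q value of 0.05, with no control library. The deposited lists give each peak's position, summit pileup (an unnormalized signal, counted in fragments), −log10 p-value and q-value, and fold enrichment, a ratio over local background. Depth is the fragment number after filtering in the authors' headers.

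Merging, percentiles and permutation tests used Python 3.11.15 (numpy 2.4.6, pandas 2.3.3, scipy 1.17.1). Interaction and T3 contrasts were fitted with limma 3.58.1 (R 4.3.3) on all 12 libraries with 4 condition means, moderated variances with a trend and Benjamini-Hochberg adjustment over 5098 regions. The interaction fit was tried on simulated data in which a region had the same spread in all 4 conditions and no upper limit. That trial does not cover the unequal spread between conditions or the top of the percentile scale. Regions named are the 5 with the smallest interaction p per direction, up to 3 per one-genotype set, the 3 strongest, and the 3 with the largest change in both genotypes per direction. The members, lists and rules were chosen with earlier results of these data known. Alternatives were other peak measures, q cutoffs, merging and library rules, fits, a replicate block, and leaving out 1 library at a time. No gene was assigned and no sequence was used here.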

Additional observations from a re-analysis of the deposited data

Results flagged for a closer look

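Both regions past the interaction test were singled out because their T3 changes differed between the genotypes by the test of the difference itself. At chr4:740506-741101 the TRα (-/-) change exceeded the wild-type change by 11.9 points, and at chr2:9803827-9804364 it did so by 25.6 points (limma adjusted p = 0.0392 for each). Both kept their sign in every alternative in which the region could be measured. The first passed in 13 of 29 alternatives, with adjusted p from 0.00121 to 0.739, and the second in 11 of 28, with adjusted p from 0.000748 to 0.739 (limma). With 1 library left out, each passed in 3 of 12 cases, those without a library of TRα (-/-) without T3. Neither region has a peak in TRα (-/-) without T3 replicate 2, so leaving that library out did not change their interactions. Their adjusted p was lower in that case because the estimate of spread and the adjustment are shared across regions. Without replicate 1 or 3, a single library with a peak remained in that condition. The 3 cases are therefore no measure of stability. With missing peaks set to 0 the interactions were 41.0 points at chr4:740506-741101 and 49.3 points at chr2:9803827-9804364 and neither passed (limma adjusted p = 0.739 for each).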

How the results depend on the processing

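Depth limits the weak values, since a region without a peak was only not detected at that depth, and percentiles of peaks of 2 to 5 fragments rest on few counts. The interaction called 2 regions as reported, 6 by pileup percentile, 4 at q below 0.001, 17 with 50% of the region covered, 9 with 1 of 3 libraries required, 6 without a variance trend, 100 with library weights, 12 among kept regions only without TRα (-/-) without T3 replicate 2, and 0 by q value percentile, with missing peaks set to 0, with 3 of 3 required and with the replicate block on either scale (18 same-numbered pairs correlated from -0.00739 to 0.190, so numbers did not pair libraries). Over 30 alternatives 473 of these calls were positive and 3 negative, and 13 gave none. Of the positive calls, 66, 35 and 205 came without replicate 1, 2 or 3 of TRα (-/-) without T3, and 99 came with library weights. The alternatives reuse the same libraries, so these sums are not independent evidence for a direction. The T3 change in TRα (-/-) called 91 regions as reported, 180 by pileup percentile, 0 on log2 fold enrichment (554 at unadjusted p below 0.05), 26 among kept regions only, 46 and 31 at q below 0.01 and 0.001, 35 with the same number of peaks, 1 with missing peaks set to 0, 154 and 12 with 1 and 3 libraries required, 333 with library weights, 42 with the replicate block, and among kept regions only 15 with the block, 34 without TRα (-/-) without T3 replicate 2 and 31 without the 3 shallowest libraries. In wild type, 1 region was called at q below 0.001. The last 3 settings were chosen after seeing the data, and the causes of these shifts were not tested.

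Kept regions numbered 3299 at q below 0.001, 2319 with 50% covered, 1761 with the same number of peaks, 10951 with 1 and 1668 with 3 libraries required. Under the same settings regions changing in TRα (-/-) only numbered 482, 188, 226, 1696 and 210, with 1353 when missing peaks were set to 0 and 333 at 30 points, and those in wild type only numbered 45 with 50% covered, 90 with the same number of peaks, 841 with 1, 25 with 3 and 90 at 30 points. The median TRα (-/-) change was 0.36 points among kept regions only, -0.96 and -0.45 there without replicate 2 or the 3 shallowest libraries, 0.11 with the same number of peaks and 14.0 with missing peaks set to 0. Spearman's rho was 0.0560 with 3 libraries required. The library median interaction was -1.75 points with the same number of peaks and 29.2 points with missing peaks set to 0.

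With each library left out, calls ranged from 14 to 526 in TRα (-/-), 0 to 0 in wild type and 0 to 205 for the interaction, r from -0.0731 to 0.00463, rho from -0.0592 to 0.0281, the median change from 2.26 to 7.48 points in TRα (-/-) and 0.97 to 2.12 in wild type, regions changing in TRα (-/-) only from 615 to 1039 and in wild type only from 209 to 330, and the library median interaction from 1.22 to 8.67 points. Of 884 values of named regions, 13 changed sign. These were the interaction of the second region higher in wild type only, chr8:2223234-2224318, at 14.7 by q value and 1.52 by pileup percentile, and that of chr6:11431491-11432324, at -2.88 with 50% covered. The others were T3 changes of regions picked for the largest change in the same direction in both genotypes. As reported, the TRα (-/-) change was 28.3 points at chr9:80311969-80313337 and 28.8 points at chr1:135006752-135008035, and both changed sign in the settings below. In wild type, chr5:2906617-2907567 was at 1.26 (q below 0.01) and 0.16 (kept regions only, without the 3 shallowest libraries). In TRα (-/-), chr9:80311969-80313337 was at -1.72 with library weights and, among kept regions only, at -6.39 without replicate 2 and -10.9 without the 3 shallowest libraries, where chr1:135006752-135008035 was at -2.46. With 1 library left out, the TRα (-/-) change ranged from -26.6 to 1.59 at chr5:2091170-2092357 and from -25.5 to 2.50 at chr5:2906617-2907567, and the wild-type change from -24.9 to 2.65 at chr10:21276737-21278251 and from -19.0 to 3.07 at chr5:2906617-2907567.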

Other observations

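In 20 kept regions the mean percentile was below 20 by fold enrichment and above 90 by summit pileup. Of these, 12 lay on chromosome 2 between positions 102069319 and 102160950, with summit pileups of 12 to 698 fragments over the 20 regions and fold enrichments of 1.76 to 5.62. The region with the largest joint increase in both genotypes among those with a peak in all 12 libraries, chr2:102155968-102158784, lies in the same interval. These regions were picked out after their values were seen.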
